A study of Mus musculus with 15 samples.

Results

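The genes described here encode the translation initiation and elongation factors, together with the enzymes that modify them. They were picked by a rule on names, as all symbols that start with Eif and a digit from 1 to 6 or with Eef and 1 or 2, without the Eif2ak kinases, the Eif4ebp genes and symbols that end in -ps. The family itself was chosen with earlier results of these data known. The rule found 63 of 32372 genes, and 61 of the 63 had enough counts to be tested. Microglia, the resident immune cells of the brain, came from 15 male hTfR KI mice of the C57BL/6J strain at 3.5 months of age. Every mouse, controls included, had the apical domain of the human transferrin receptor knocked into its own receptor gene, which lets the antibody transport vehicle (ATV, an engineered Fc) bind. Each received 1 dose of 10 mg/kg, either of ATV:4D9, an antibody to the microglial receptor TREM2 on that vehicle, or of the control ATV:RSV. Cells of the cortex and hippocampus were enriched with beads against CD45, and 5 groups of 3 mice were sequenced as single cells. The control group had received ATV:RSV and was taken at day 1, and the 4 groups given ATV:4D9 were taken after 1, 7, 14 or 28 days. All comparisons with control use the same 3 ATV:RSV mice of day 1, since the later days had no control of their own here.

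Protein synthesis starts when eIF2 brings the initiator tRNA to the small ribosomal subunit, eIF3 and the eIF4 factors load that subunit onto a capped mRNA, and eIF1, eIF1A, eIF5 and eIF5B select the start codon and join the large subunit. Elongation then depends on eEF1A, which delivers aminoacyl-tRNA, on the eEF1B complex, which recharges it with GTP, on eEF2, which moves the ribosome along, and on eIF5A, which helps at stalled peptide bonds. The kinase eEF2K inhibits eEF2 by phosphorylation. In immune cells the supply of these factors is known to change with activation and growth.

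The 102043 cells of the 15 mice held 32341960 to 70307384 UMIs (unique molecular identifiers, each counted as 1 molecule) per mouse, in 5667 to 7596 cells. The day 1 mice of ATV:4D9 had more UMIs per cell, with medians of 8201.5 to 8995.5 against 4975 to 5750 in ATV:RSV, and 3.96% to 4.50% mitochondrial UMIs against 3.11% to 3.38%. A UMI of Mki67 or Top2a, genes of dividing cells, was held by 19.6% to 27.4% of their cells and by 0.397% to 0.684% of the ATV:RSV cells, shares that rise with depth and are no measured share of dividing cells. The 6 microglial markers summed to 14614 to 16297 CPM (UMIs of a gene per 1000000 UMIs, scaled by the TMM method) at day 1 and to 17927 to 19533 CPM in ATV:RSV, whereas the 3 neuronal markers summed to at most 8.85 CPM in any mouse and the 4 T and NK cell markers to at most 0.604 CPM. Markers of B cells, oligodendrocytes and endothelial cells (3 each) were at 25.1 to 26.8, 20.4 to 22.5 and 9.45 to 13.1 CPM at day 1. In ATV:RSV they were higher without overlap, at 27.6 to 34.2, 26.5 to 32.5 and 17.4 to 22.2 CPM. The 3 monocyte markers were at 14.97 to 19.4 CPM at day 1 and at 3.96 to 10.5 CPM in ATV:RSV, the 5 markers of border-associated macrophages were at 16.3 to 25.0 against 14.2 to 17.4 CPM, and replicate 3 of day 7 stood apart with 117 CPM over the 4 neutrophil markers. Values without the cells that held a Mki67 or Top2a UMI and without that mouse are given below, and the part of the other differences in the results was not tested. At most 27 cell barcodes were shared by any 2 mice. In sums over a mouse, more RNA of a gene in each cell and more cells that express it cannot be told apart.

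Promoter letters are described first, though they were counted after the calls given below were known. CACGTG, the E-box bound by MYC and other factors of that class, is a known element of genes for ribosome assembly and translation. RefSeq promoter windows on GRCm38.p6, from 250 bases before to 50 bases after each annotated start, were found for 49 of the 63 genes, and 14 of the 49 (28.6%) held CACGTG. Over all genes with a window the share was 8.09%, and over all windows 7.15%. Of the genes for eIF4F, the complex that binds the mRNA cap, Eif4e had a match at 228 and 64 bases, Eif4a1 at 189 bases and Eif4g1 at 54 bases before a start annotated by RefSeq, whereas the paralogs Eif4a2 and Eif4g3 had none in their windows. Eif4e2, which was called higher at day 1, had none, and Eif5a2, which was called neither higher nor lower, had matches at 142 and 117 bases. The following stretches, 5′ to 3′ on the strand of the gene with CACGTG in capitals, are shown for members that recur below, with 22 bases on either side and no annotated exon within them. By GENCODE M21 both Eif4e matches lay in an exon and are not shown, and the stretches of Eif4g1 and Eif5a lay within the span of the gene, outside its exons, whereas the other 4 stretches lay outside it.
Eif4a1, chr11:69672585-69672634 (-): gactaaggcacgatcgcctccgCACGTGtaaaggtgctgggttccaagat
Eif4g1, chr16:20672651-20672700 (+): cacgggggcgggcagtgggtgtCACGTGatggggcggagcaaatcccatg
Eif5a, chr11:69921433-69921482 (-): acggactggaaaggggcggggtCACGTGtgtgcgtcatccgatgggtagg
Eef2, chr10:81176566-81176615 (+): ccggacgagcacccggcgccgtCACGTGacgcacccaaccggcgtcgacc
Eif3f, chr7:108934325-108934374 (+): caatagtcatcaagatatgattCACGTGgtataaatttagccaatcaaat
Eef2k, chr7:120842778-120842827 (+): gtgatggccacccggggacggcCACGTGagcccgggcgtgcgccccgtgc
The same letters lay before genes that were called higher at day 1, such as Eif4g1, and before Eef2k, which was called lower. Of the 14 tested members with the letters 12 were called higher at day 1 (85.7%), and of the 34 tested members with a window and no match 28 were (82.4%), where 34.7% of all genes tested were (limma-voom, described below). A second pattern, a C at the annotated start followed by at least 4 C or T, is the 5′ terminal oligopyrimidine mark through which mTOR is known to control the mRNAs of many translation factors. CACGTG reads the same on both strands, while this pattern was read on the strand of the gene and can overlap CACGTG only by its first C. It was present in 3.01% of all genes with a window and in 3 of the 49 members (6.12%), namely Eif3f, Eif2s3x and the untested Eif2c5. The first 20 bases of the transcript are shown for both tested genes, with the pyrimidines in capitals.
Eif3f, chr7:108934415-108934434 (+): CTCTCTTTCTCggcaagatg
Eif2s3x, chrX:94212632-94212651 (-): CTTTTCTCTCCgagcaagat
Both patterns depend on the annotated start, and a start that is placed a few bases away hides the pattern.

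**Figure D1:**
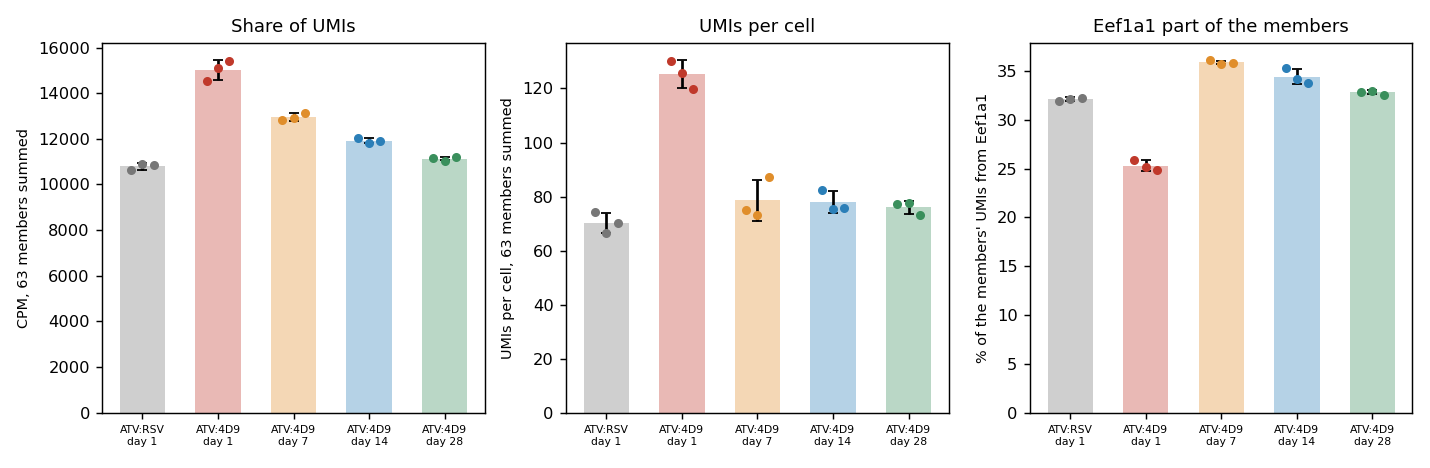
Summed level of the 63 members in each mouse, as CPM (left), as UMIs per cell (middle) and as the percent of their UMIs that came from Eef1a1 (right). Points are mice, bars are means with SD of 3 mice, and the day 1 mice of ATV:4D9 lie above all others in the first 2 panels and below all others in the third.

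At day 1 of ATV:4D9 most translation factors were at a higher level than in ATV:RSV. A member was called higher or lower when limma-voom, fitted over all 14260 genes tested, gave a Benjamini-Hochberg adjusted p under 0.05. By this rule 51 of the 61 tested members (83.6%) were higher and 6 (9.84%) were lower at day 1, where 34.7% of all genes tested were higher and 34.6% were lower. The groups did not overlap in any of the 57, though a call in groups this small makes separation likely, and no share over all genes was counted. The median log2 fold change of the members was 0.61, against -0.046 over all genes tested. At least 2-fold higher were 15 members, a count that was not made over all genes either. Summed over all 63 genes, the level was 10635, 10889 and 10847 CPM in the ATV:RSV mice and 14553, 15099 and 15393 CPM at day 1, a mean ratio of 1.39, as the plot of summed levels shows. With library-size scaling the sums were 11208 to 11580.3 CPM and 13179 to 13636 CPM, a ratio of 1.18. The composition of that sum changed too, because Eef1a1, the most abundant member, gave 31.9% to 32.3% of it in ATV:RSV and 24.8% to 25.9% at day 1. The choice of scaling moves these values, since scaling to the library size alone, without TMM, shifted the median of all genes to -0.29 and gave 41 members higher and 10 lower with a member median of 0.37. The calls lost were those of Eif1b, Eif2a, Eif2d, Eif3f, Eif3h, Eif4b, Eif4enif1, Eef1a1, Eef1aknmt and Eef2, of which Eif3f and Eef1a1 were called lower. Of all genes called at day 1, 50.1% were higher with TMM and 34.7% with library-size scaling.

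**Figure D2:**
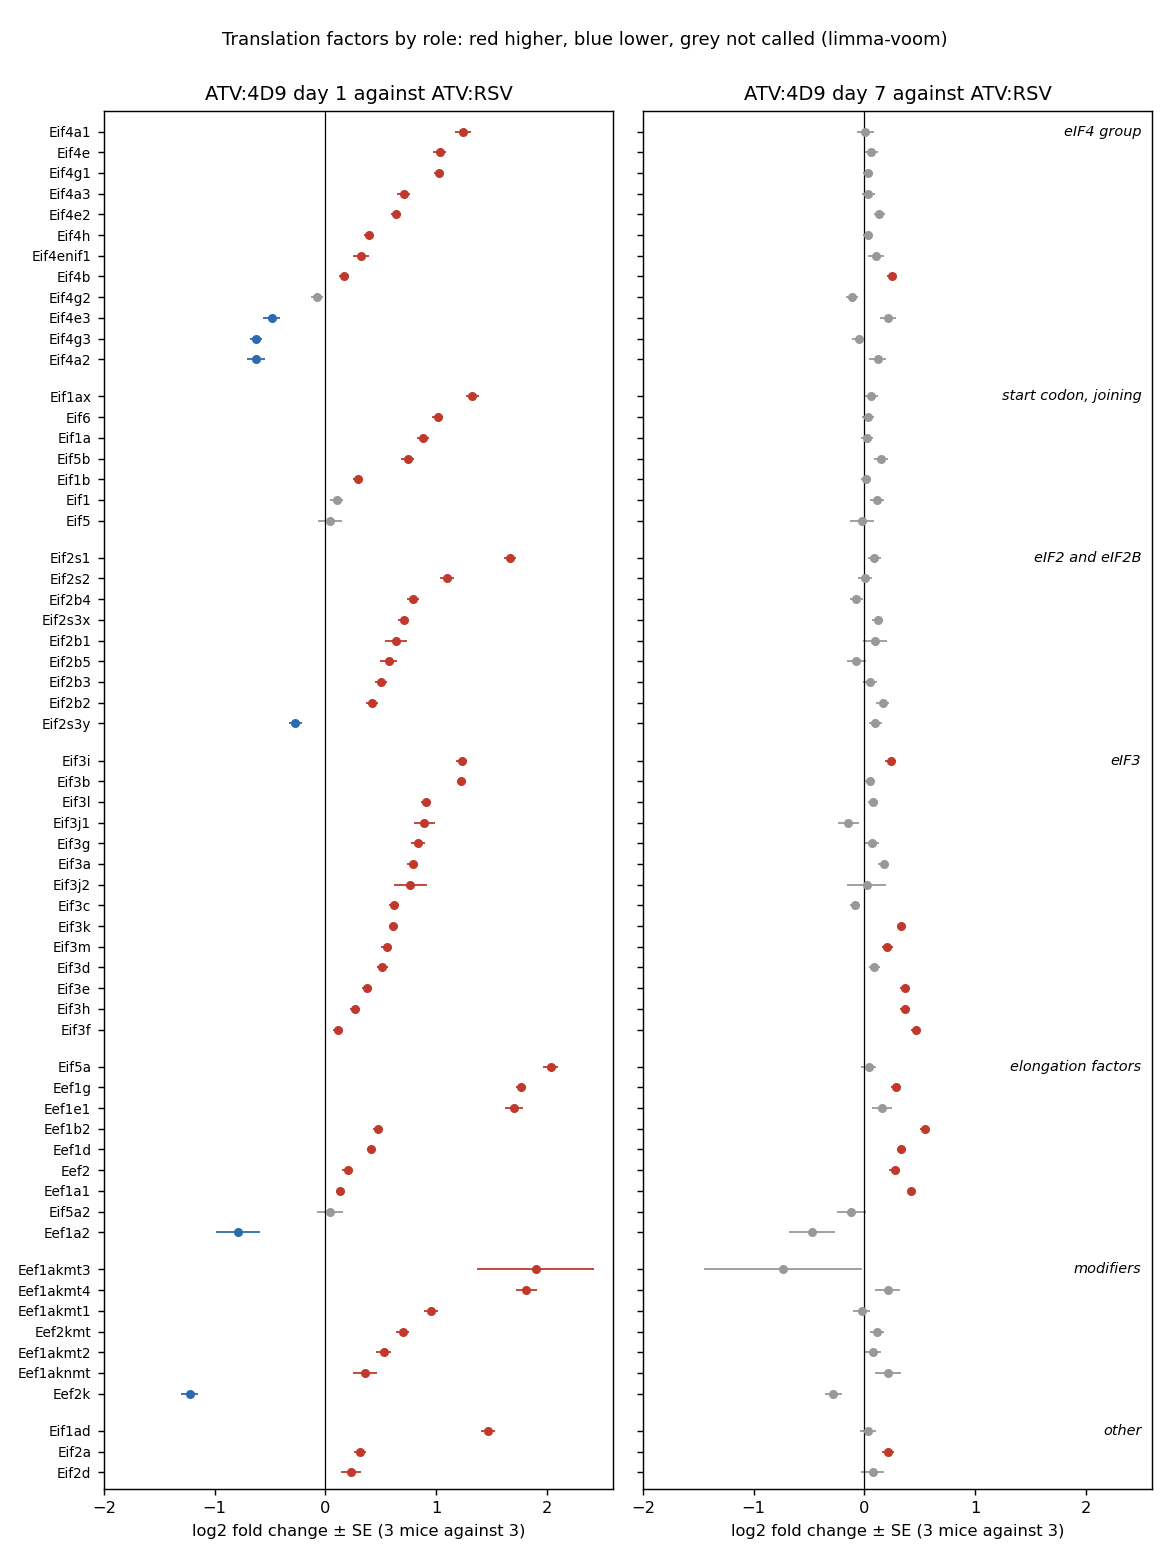
Log2 fold change against ATV:RSV with its SE for the 61 tested members, ordered by role and by the day 1 value, at day 1 (left) and day 7 (right) of ATV:4D9. Red points were called higher, blue points lower and grey points neither, and at day 1 51 points are red and 6 blue, whereas at day 7 13 are red and none is blue, while of the red points at day 1 those of Eif3f, Eef1a1, Eif4b, Eef2 and Eif2d turn below 0 when the libraries are scaled by their size alone.

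Among the factors that bind the cap and unwind the mRNA 3 genes moved against a relative, in pairs set side by side with the values known. Of the 12 tested eIF4 genes 8 were higher (66.7%), 3 were lower (25%) and 1 was not called at day 1. Over all genes tested 34.7% were higher and 34.6% lower. Of the 8 higher genes Eif4b turned below 0 with library-size scaling. Eif4a1, the helicase of eIF4F (chr11:69666936-69672423 in mm10, protein coding), was at 318, 322 and 351 CPM in the ATV:RSV mice and at 759, 756 and 833 CPM at day 1. Its paralog Eif4a2 (chr16:23107444-23114136), which is known to act with microRNA repression complexes as well, was at 235, 205 and 209.7 CPM and at 152, 137 and 133 CPM. Neither pair of groups overlapped, with Eif4a1 high and Eif4a2 low in every day 1 mouse. The log2 fold changes were 1.24 ± 0.076 (SE, adjusted p = 7.15e-10) for Eif4a1 and -0.63 ± 0.077 (adjusted p = 2.46e-06) for Eif4a2.

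Eif4g1, the main scaffold of eIF4F, was at 76.9, 79.3 and 76.8 CPM in ATV:RSV and at 151, 161 and 164 CPM at day 1. Eif4g3, a second scaffold, was at 75.7, 82.4 and 78.0 CPM and at 50.4, 54.7 and 48.1 CPM. The first rose 2.04-fold (1.03 ± 0.045 on the log2 scale, adjusted p = 1.48e-11) and the second fell 1.54-fold (-0.62 ± 0.056, adjusted p = 6.04e-08), both without overlap. Eif4g2, a related scaffold that lacks the binding site for eIF4E, had a value of -0.072 (adjusted p = 0.245).

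Eif4e, the cap-binding protein itself, was at 54.6, 48.3 and 50.7 CPM in ATV:RSV and at 106, 104 and 104 CPM at day 1, a log2 fold change of 1.03 ± 0.06 (adjusted p = 4.27e-10). The related Eif4e3 was at 17.2, 18.8 and 18.9 CPM and at 12.1, 13.9 and 13.2 CPM and fell by 0.48 on that scale (adjusted p = 3.29e-05). Again the day 1 mice were above the controls for the first gene and below them for the second. Eif4e2, a cap-binding homolog linked to repression, was higher (0.64, adjusted p = 5.22e-09), as were Eif4a3 of the exon junction complex (0.71, adjusted p = 2.02e-08), the helicase cofactor Eif4h (0.39, adjusted p = 4.71e-07) and Eif4enif1, which carries eIF4E into the nucleus (0.32, adjusted p = 8.43e-04). The other helicase cofactor, Eif4b, was called higher at 0.17 (adjusted p = 0.00238), but its value was -0.069 and not called when libraries were scaled by size alone.

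**Figure D3:**
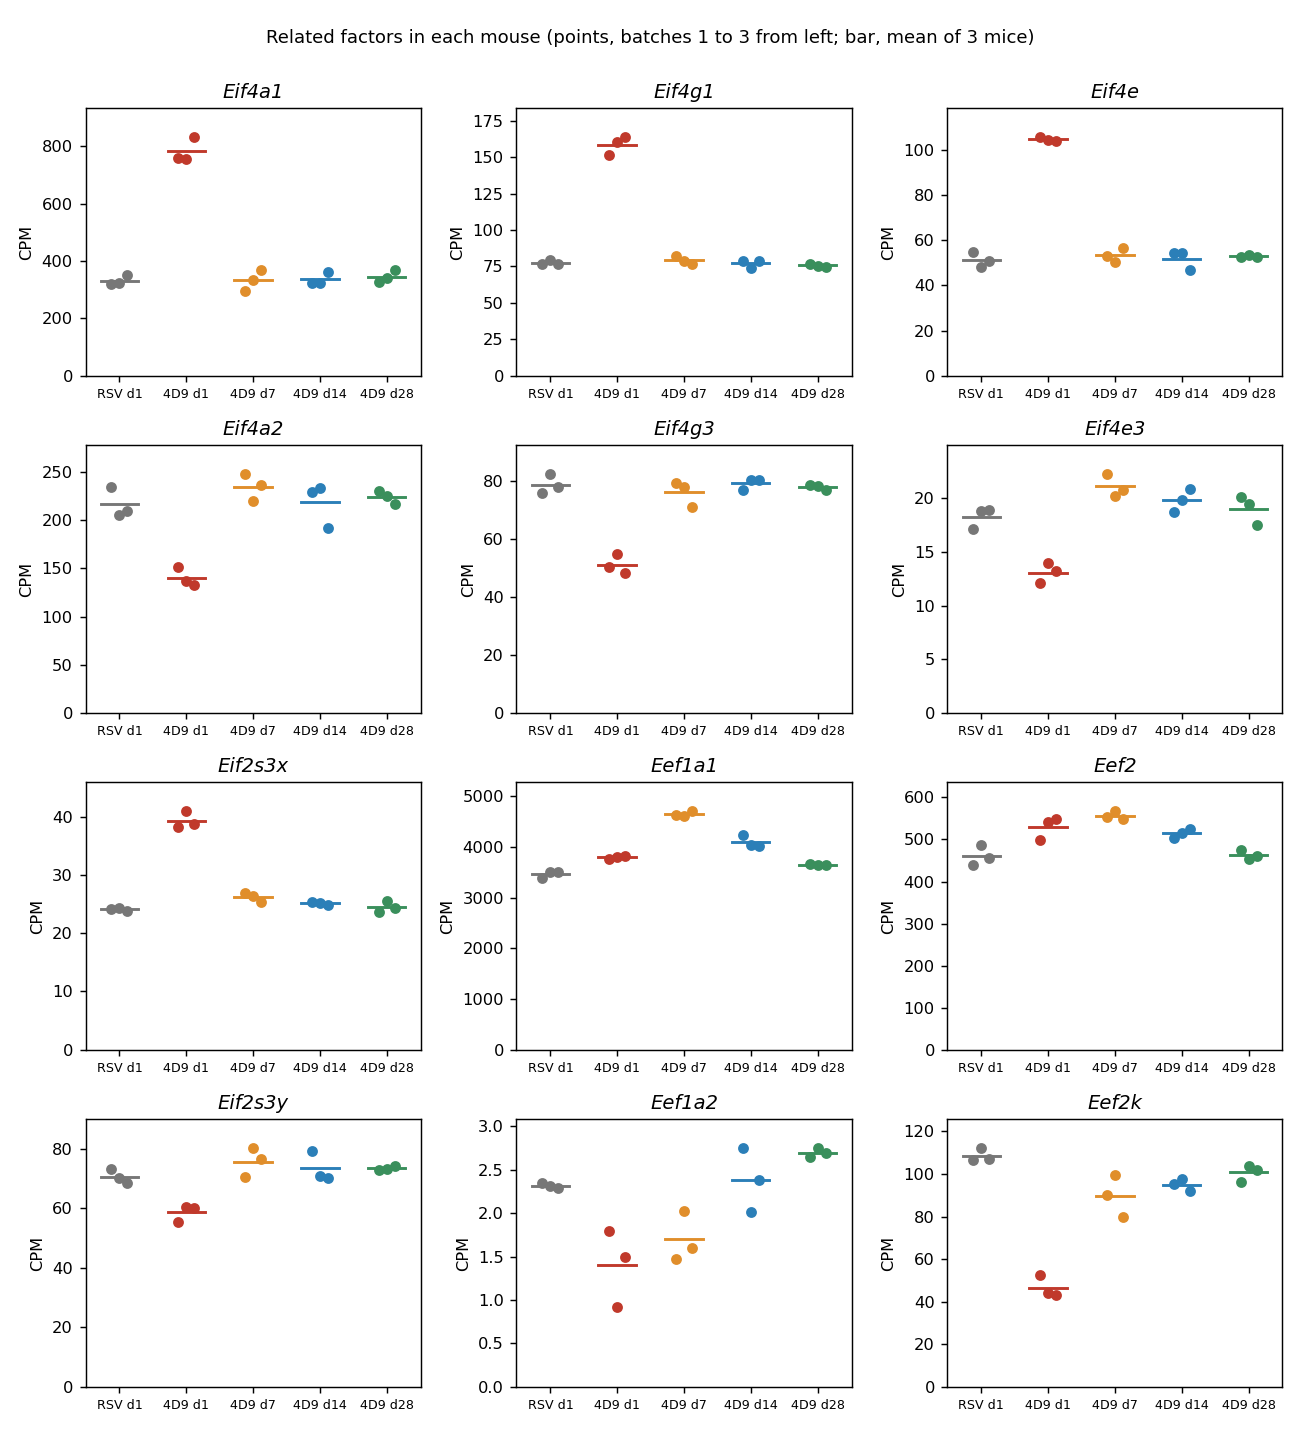
CPM of 12 members in each mouse of the 5 groups, with related genes or an enzyme and its substrate above each other (Eif4a1 and Eif4a2, Eif4g1 and Eif4g3, Eif4e and Eif4e3, Eif2s3x and Eif2s3y, Eef1a1 and Eef1a2, Eef2 and Eef2k) and each axis starting at 0. The pairs were chosen with the values known, and Eif4e2, which rose like Eif4e, and Eif5a2, which was not called, are left out. At day 1 of ATV:4D9 the upper gene of each pair lies above ATV:RSV and the lower gene below it, except that Eef1a1 and Eef2 lie above with TMM scaling alone and have log2 fold changes of -0.11 and -0.04 with library-size scaling.

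Among the 7 genes for start codon selection and subunit joining 5 were higher and none was lower at day 1. Eif1ax, which encodes a copy of eIF1A on the X chromosome, was at 34.7, 33.6 and 34.1 CPM in ATV:RSV and at 79.9, 87.3 and 90.4 CPM at day 1. Eif6, an anti-association factor that keeps the large subunit free and takes part in its assembly, was at 72.2, 73.2 and 74.1 CPM and at 138, 151 and 155 CPM. Their log2 fold changes were 1.33 ± 0.059 (adjusted p = 2.05e-11) and 1.01 ± 0.052 (adjusted p = 9.36e-11), with no overlap of the groups. Eif1a (0.88, adjusted p = 7.44e-10), the GTPase Eif5b (0.74, adjusted p = 1.55e-08) and Eif1b (0.29, adjusted p = 1.59e-05) were higher too, and the near-identical products of Eif1a and Eif1ax may have shared reads. Eif1, the gatekeeper of start codon fidelity, was at 1098, 1064 and 1082 CPM in ATV:RSV and at 1036, 1192 and 1265 CPM at day 1. These groups overlapped and its value was 0.10 ± 0.06 (adjusted p = 0.144), which became -0.14 (adjusted p = 0.0382) with library-size scaling and 0.19 (adjusted p = 0.00333) without replicate 1 of ATV:4D9 day 1. Eif5, the GTPase-activating protein of eIF2, was not called (0.042, adjusted p = 0.747).

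The 3 subunits of eIF2 and the 5 subunits of its recycling factor eIF2B were all higher at day 1, apart from the Y-linked copy of the third eIF2 subunit. Eif2s1, the alpha subunit that stress kinases phosphorylate (chr12:78861819-78887010), was at 61.9, 54.8 and 59.5 CPM in ATV:RSV and at 177, 184 and 199 CPM at day 1. Every day 1 mouse lay far above every control, and the gene rose 3.18-fold (1.67 ± 0.057 on the log2 scale, adjusted p = 1.04e-12). The beta subunit Eif2s2 was higher by 1.10 (adjusted p = 2.05e-10). The gamma subunit is encoded by Eif2s3x and Eif2s3y, which are very alike, and their reads may not have been told apart everywhere. Eif2s3x rose (0.71, adjusted p = 2.09e-09), whereas Eif2s3y was at 73.1, 70.2 and 68.5 CPM in ATV:RSV and at 55.4, 60.4 and 60.1 CPM at day 1 and fell by 0.27 (adjusted p = 7.04e-04). All mice were male, so both copies were present in every group.

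The eIF2B genes had smaller values than Eif2s1. Eif2b1, the alpha subunit of this exchange factor, was at 11.5, 9.53 and 12.4 CPM in ATV:RSV and at 17.2, 17.1 and 17.5 CPM at day 1, a log2 fold change of 0.64 ± 0.10 (adjusted p = 2.65e-05) between groups that did not overlap. The other 4 subunits were higher by 0.42 (Eif2b2) to 0.79 (Eif2b4). The 95% intervals of Eif2s1 (1.55 to 1.79) and of Eif2b4 (0.68 to 0.90), the highest of the 5, did not overlap.

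All 14 eIF3 subunit genes were called higher at day 1, with log2 fold changes from 0.11 for Eif3f, which turned to -0.13 (adjusted p = 0.0127) with library-size scaling, to 1.23 for Eif3i and a median of 0.69. With that scaling Eif3h also lost its call (0.026, adjusted p = 0.562). eIF3 is the large scaffold that holds the small subunit, and its b, g and i subunits form a module apart from the core built of a, c, e, f, h, k, l and m. The module genes had values of 1.22 (Eif3b), 0.84 (Eif3g) and 1.23 (Eif3i), and the core genes ranged from 0.11 (Eif3f) to 0.91 (Eif3l), a grouping made after the values had been seen. Eif3a, the largest core subunit, was at 174, 175 and 166 CPM in ATV:RSV and at 276, 305 and 311 CPM at day 1, without overlap (0.79 ± 0.049, adjusted p = 7.92e-10). Eif3f, a core subunit with a deubiquitinase-like fold, was at 225, 240.5 and 240.1 CPM and at 248, 252 and 262 CPM. Its groups lay next to each other without overlap, and its call (adjusted p = 0.0299) was lost without replicate 1 of ATV:RSV (adjusted p = 0.143) or replicate 3 of ATV:4D9 day 1 (adjusted p = 0.0965) and without the 5% of cells with most UMIs (adjusted p = 0.0631). The near-identical Eif3j1 (0.89, adjusted p = 2.83e-07) and Eif3j2 (0.77, adjusted p = 2.91e-04) may have shared reads.

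Among the 9 elongation factors 7 were higher, 1 was lower and 1 was not called at day 1, and of the 7 Eef1a1 and Eef2 turned below 0 with library-size scaling. Eif5a, which carries the amino acid hypusine and relieves ribosome stalling (chr11:69916714-69921958, protein coding), was at 204, 214 and 227 CPM in ATV:RSV and at 822, 871 and 945 CPM at day 1. All day 1 mice were several-fold above all controls, and the gene rose 4.09-fold (2.03 ± 0.067 on the log2 scale, adjusted p = 7.78e-13), the highest value of the 61. Its paralog Eif5a2 had 0.041 (adjusted p = 0.768).

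The subunits of the eEF1 complex differed among themselves. Eef1g, the gamma subunit of the exchange complex (chr19:8967041-8978479), was at 187, 189 and 186 CPM in ATV:RSV and at 636, 628 and 646 CPM at day 1, a 3.40-fold rise (1.77 ± 0.041, adjusted p = 3.07e-14). The catalytic subunit Eef1b2 was at 714, 786 and 754 CPM and at 1007, 1053 and 1068 CPM, and Eef1d, the delta subunit, was at 270.0, 288 and 293 CPM and at 375, 374 and 384 CPM. Groups did not overlap for any of the 3 genes. The 95% intervals of the log2 fold change were 1.68 to 1.85 for Eef1g, 0.39 to 0.56 for Eef1b2 and 0.33 to 0.50 for Eef1d, so that the interval of Eef1g lay above those of its partners. Eef1d overlaps Naprt on the same strand by 277 bases. Eef1e1, also known as a part of the multi-tRNA synthetase complex, was at 21.4, 19.6 and 24.0 CPM and at 69.0, 67.9 and 74.1 CPM and was higher by 1.70 ± 0.082 (adjusted p = 4.68e-11).

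Eef1a1, the delivery factor itself and the most abundant member (chr9:78478449-78489151), was at 3393, 3500.2 and 3501 CPM in ATV:RSV and at 3768, 3804 and 3824 CPM at day 1. The groups did not overlap, but the change was small (0.13 ± 0.034, adjusted p = 0.00280) and reversed to -0.11 (adjusted p = 0.00711) with library-size scaling. Eef2, the translocase, was at 439, 488 and 456 CPM and at 499, 541 and 549 CPM and was called higher by 0.20 ± 0.047 (adjusted p = 0.00142), a value that became -0.04 (adjusted p = 0.457) with that scaling. Eef1a2, the form of neurons and muscle, was at 2.35, 2.32 and 2.29 CPM in ATV:RSV and at 1.79, 0.915 and 1.50 CPM at day 1 and fell (-0.79 ± 0.20, adjusted p = 0.00249). The neuronal markers also ran lower at day 1, at 4.23 to 5.94 CPM against 7.01 to 8.78 CPM in ATV:RSV, and their part in the Eef1a2 value was not tested.

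Enzymes that modify the elongation factors included the strongest decrease. Eef2k, the kinase that inhibits eEF2 (chr7:120842831-120907450), was at 107, 112 and 107 CPM in ATV:RSV and at 52.4, 44.0 and 43.3 CPM at day 1. Every day 1 mouse was below every control, and the gene fell 2.34-fold (-1.22 ± 0.078 on the log2 scale, adjusted p = 1.10e-09), the lowest value of the 61 and the single one past a 2-fold decrease. Methyltransferases of the elongation factors went the other way. Eef1akmt4 was at 6.50, 4.73 and 5.46 CPM and at 18.3, 19.8 and 21.0 CPM, without overlap (1.82 ± 0.094, adjusted p = 9.85e-11). Eef1akmt1 (0.95, adjusted p = 2.87e-09), Eef2kmt (0.70, adjusted p = 3.16e-08), Eef1akmt2 (0.53, adjusted p = 3.74e-06) and Eef1aknmt (0.36, adjusted p = 0.00869) were higher as well. Eef1akmt2 lies on the same strand within the annotated span of Fgfr2. Eef1akmt3 held 83 UMIs over all mice, at 0.0409, 0.121 and 0.0716 CPM in ATV:RSV and at 0.330, 0.245 and 0.321 CPM at day 1, so that its value of 1.90 ± 0.53 (adjusted p = 0.00479) rests on few molecules.

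Of the remaining genes Eif1ad, which is named for an eIF1A domain, was at 31.0, 34.2 and 33.4 CPM in ATV:RSV and at 83.7, 95.7 and 93.5 CPM at day 1, with no overlap (1.47 ± 0.064, adjusted p = 1.65e-11). Eif2a (0.31, adjusted p = 5.15e-05) and Eif2d (0.23, adjusted p = 0.0356), which can deliver initiator tRNA without eIF2, were also called higher, though Eif2d was not called in 7 of 22 alternative analyses, among them library-size scaling, where it was -0.0058. Eif4e1b, an oocyte form of eIF4E, and Eif2c5, an older Argonaute-type name that the rule matched by its letters and that GENCODE M21 lists as a lincRNA, had 0 UMIs in all mice and were not tested.

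As UMIs per cell most members were above the control mice. The 63 genes together had 74.1, 66.4 and 70.1 UMIs per cell in the ATV:RSV mice and 130.1, 126 and 119.98 at day 1, a mean ratio of 1.79. Of the 61 tested members 55 were above every control mouse, 2 were below every control mouse and 4 overlapped, where 49.4% of all genes tested were above and 14.7% below. Eef2k was one of the 2 lower genes, at 0.742, 0.684 and 0.692 UMIs per cell in ATV:RSV and 0.469, 0.366 and 0.337 at day 1, and Eif4g3 was the other, at 0.528, 0.503 and 0.504 and 0.450, 0.456 and 0.375. Eif4a2, Eif4e3, Eef1a2 and Eif2s3y, which fell as a share of UMIs, overlapped between the groups. An exact two-sided permutation test of 3 mice against 3 gave p = 0.1 for each of the 57 that did not overlap, the smallest p this design allows. More UMIs were counted in each cell at day 1, so a per-cell value moves with the depth of the cell, and its part in these values was not tested.

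At day 7 a smaller set was still raised, and it was not led by the genes with the largest day 1 values. Of the 61 tested members 13 (21.3%) were called higher and 0 lower, where 2.99% of all genes tested were higher and 0.996% lower. The median log2 fold change was 0.077, against -0.0049 over all genes tested, and it turned to -0.018 with library-size scaling. The 13 were 6 eIF3 subunits (Eif3e, Eif3f, Eif3h, Eif3i, Eif3k and Eif3m), 5 elongation factors (Eef1a1, Eef1b2, Eef1d, Eef1g and Eef2), Eif4b and Eif2a, and all 13 had also been called higher at day 1. No member of the start codon group, of the eIF2 and eIF2B group or of the modifiers was among them. These groups are too small for that to be read against the 2.99% of all genes. Library-size scaling, which moved the median of all genes by about 0.1 to -0.10, gave 10 members higher and 3 lower (Eef2k, Eif3c and Eif4g2). It also moved the share of higher calls among all genes called from 75% to 26.4%. With the batch as a replicate block 15 were higher and 1, Eef2k, was lower, while the calls over all genes went from 568 to 1014. The day 1 calls of the 13 rest on the same control mice as those of day 7, and how many of all genes called higher at day 7 were also higher at day 1 was not counted. Those of Eef1a1, Eef2, Eif2a, Eif3f, Eif3h and Eif4b at day 1 were lost with library-size scaling.

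Eef1b2 was at 1089.8, 1105 and 1094 CPM in the day 7 mice, all above the 714 to 786 CPM of the ATV:RSV mice, the largest rise at this day (0.55 ± 0.041, adjusted p = 1.34e-06). Eif3f was at 319.6, 315 and 336 CPM, above all control and all day 1 mice (0.46 ± 0.043, adjusted p = 6.20e-06). Eef1a1 was at 4622, 4612 and 4709.7 CPM, again above the mice of both other groups (0.42 ± 0.034, adjusted p = 2.32e-06). These 3 genes led the list at day 7, although Eif3f and Eef1a1 had the smallest values called higher at day 1, which turned below 0 with library-size scaling. Eif3h was at 184, 199 and 199.6 CPM in ATV:RSV, 226, 233 and 241 CPM at day 1 and 251, 245 and 253 CPM at day 7 (0.36 ± 0.043, adjusted p = 6.21e-05). Eif3e was at 123, 127 and 126, then 155, 168 and 165 and then 158, 156 and 169 CPM (0.36 ± 0.043, adjusted p = 6.98e-05). From day 1 to day 7 neither was called with TMM (Eif3h 0.10, adjusted p = 0.0532, and Eif3e -0.012, adjusted p = 0.815), though every day 7 mouse was above every day 1 mouse for Eif3h, whose values with library-size scaling were 0.026 at day 1 and 0.27 at day 7.

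Eif3k was at 156, 169 and 169 CPM in ATV:RSV, 247, 247 and 259.9 CPM at day 1 and 208, 206 and 208 CPM at day 7 (0.33 ± 0.041, adjusted p = 9.62e-05), so that it had come down from day 1 but still lay above the controls. Eef1d was at 355, 355 and 360.1 CPM at day 7 (0.33 ± 0.04, adjusted p = 7.53e-05) and Eef1g at 225, 229 and 229.9 CPM (0.28 ± 0.042, adjusted p = 5.60e-04). Eef1g had thus lost most of its day 1 rise, to a value like that of its partner Eef1d. Eef2 was at 554, 568 and 548 CPM (0.27 ± 0.048, adjusted p = 0.00265). Eif4b was at 68.7, 75.1 and 72.9 CPM in ATV:RSV, 81.3, 81.7 and 80.6 CPM at day 1 and 86.6, 84.9 and 85.5 CPM at day 7 (0.25 ± 0.044, adjusted p = 0.00309). All 13 genes had day 7 mice above every control mouse, and all had the same sign within each of the 3 batches. Both are likely once a gene is called, and neither was counted over all genes.

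The last 3 of the 13 were less firm. Eif3i (0.24, adjusted p = 0.00786), Eif2a (0.21, adjusted p = 0.0316) and Eif3m (0.20, adjusted p = 0.0327) were not called without replicate 3 of day 7, the mouse with 117 CPM of neutrophil markers, which left 10 members called. Eif2a and Eif3m were also lost without replicate 1 or 2 of ATV:RSV or replicate 2 of day 7, and Eif3m without replicate 1 of day 14. All 3 were lost with library-size scaling as well, and Eif2a and Eif3m without the filter on low counts. Eef2k was at 89.9, 99.6 and 79.9 CPM at day 7, below all control mice, with -0.28 ± 0.077 and an adjusted p of 0.0519. Eif5a, which led at day 1, was at 207, 219 and 235 CPM, Eif4a1 at 294, 335 and 370.2 CPM and Eif2s1 at 60.5, 60.7 and 66.1 CPM, each overlapping ATV:RSV. The other 38 members called higher at day 1 were not called at day 7, and 31 of them overlapped ATV:RSV there, counts that were not made over all genes.

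**Figure D4:**
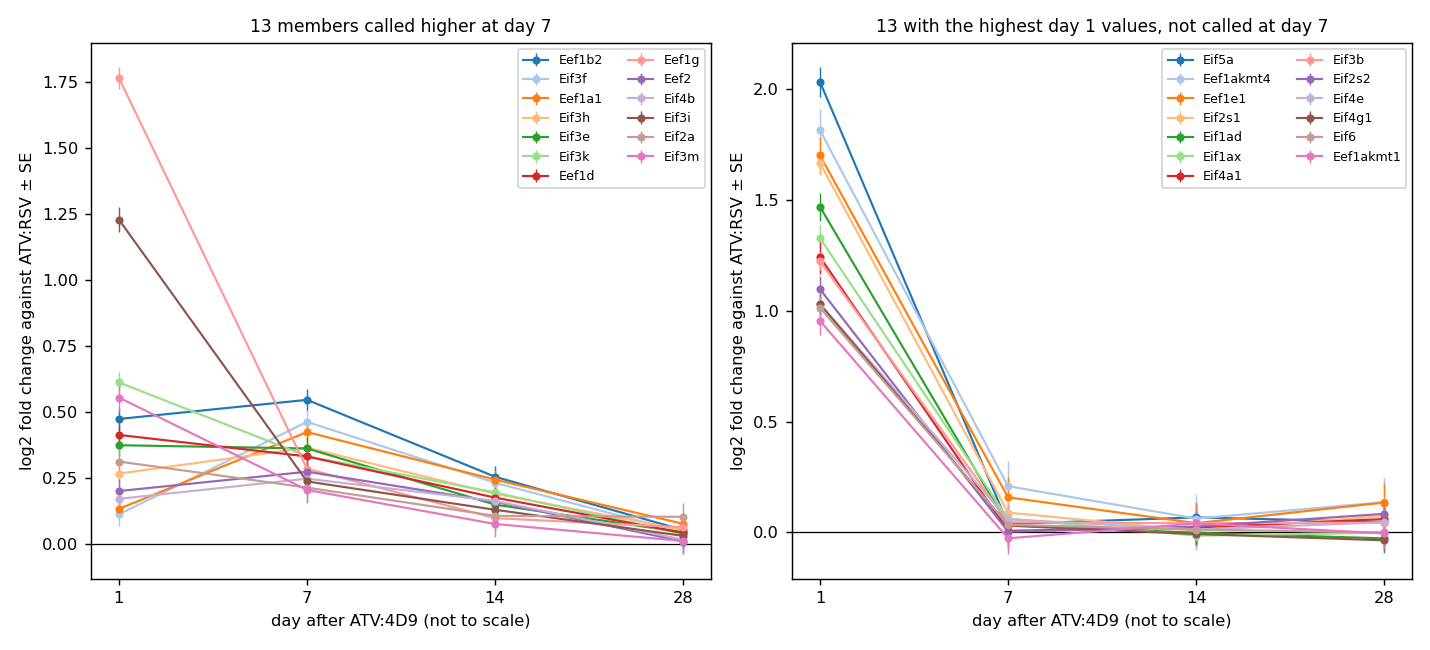
Log2 fold change against ATV:RSV with its SE at days 1, 7, 14 and 28 for the 13 members called higher at day 7 (left) and for the 13 members with the highest day 1 values among those not called at day 7 and with at least 1000 UMIs (right). On the right no gene exceeds 0.21 (Eef1akmt4) at day 7, whereas on the left, where genes were chosen for their day 7 values, these decline from day 7 to day 28, and of those on the left Eef1a1, Eif3f, Eef2 and Eif4b have day 1 values below 0 with library-size scaling.

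The change from day 1 to day 7 was tested directly. From day 1 to day 7 40 members fell and 7 rose, where 33.9% of all genes tested fell and 33% rose, and the remaining 14 were not called. With library-size scaling 38 fell and 13 rose, and the share of all calls that rose went from 49.3% to 59.8%. All 40 that fell had been higher at day 1 and 5 of the 7 that rose had been lower, in contrasts that share the day 1 mice. The other 2 were Eif3f, which was higher at day 7 than at day 1 by 0.35 ± 0.043 (adjusted p = 2.52e-06), and Eef1a1, by 0.29 ± 0.034 (adjusted p = 1.68e-06). Of the 13 genes called at day 7, 4 fell from day 1 (Eef1g, Eif3i, Eif3k and Eif3m), these 2 rose and 7 were not called. Eef2k rose again by 0.94 ± 0.078 (adjusted p = 3.09e-08), Eif4a2 by 0.74, Eif4e3 by 0.69, Eif4g3 by 0.57 and Eif2s3y by 0.37. Eif5a fell by 1.99 (adjusted p = 1.18e-12). A moderated F test over the 5 groups called 55 of the 61, where it called 66.5% of all genes tested.

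At day 14 few members were called. Eef1a1 was at 4239.9, 4045 and 4025 CPM (0.24 ± 0.034, adjusted p = 0.00828), Eef1b2 at 909, 888 and 891 CPM (0.25 ± 0.041, adjusted p = 0.00868) and Eif3f at 281, 270.1 and 277 CPM (0.23 ± 0.043, adjusted p = 0.0232), all above every control mouse. These 3 of 61 were called, all higher, where 0.4% of all genes tested were called. With the batch as a replicate block the count was 6, as Eif3k, Eif3h and Eef1d were added, while the calls over all genes went from 57 to 122. With library-size scaling it was 1, Eef1a1 (0.19), as Eef1b2 (0.20, adjusted p = 0.0659) and Eif3f (0.18, adjusted p = 0.156) were lost. It was 0 without replicate 1 of ATV:4D9 day 14 and 1 without replicate 3 of ATV:RSV, and Eif3f was lost whichever mouse of either group was left out. At day 28 limma-voom called 0 of the 61 members and 0% of all genes tested, edgeR and DESeq2 called 0 members too, and 1 member had an unadjusted p under 0.05. The 13 genes were chosen for their day 7 values, so that lower values later are in part set by that choice, and their median log2 fold change was 0.33 at day 7, 0.16 at day 14 and 0.044 at day 28. Summed over the 63 genes, the level was 12807 to 13143 CPM at day 7, 11831 to 12026 CPM at day 14 and 11047 to 11203 CPM at day 28, against 10635 to 10889 CPM in ATV:RSV. With library-size scaling the day 28 mice, at 11579 to 11656 CPM, met the ATV:RSV mice, which reached 11580.3 CPM.

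The deposited table places each cell in 1 of 3 clusters, and at day 1 most cells were in another cluster than in ATV:RSV. Cluster 2 held 5607 to 6597 cells per day 1 mouse and 76 to 165 cells per ATV:RSV mouse, whereas clusters 0 and 1 held 211 to 383 and 180 to 555 cells per day 1 mouse. The clusters were made from expression, so each comparison below is one of cells chosen to be alike. Within cluster 0, 6 of 60 tested members were higher and 2 lower, where 3.77% of the genes tested there were higher and 1.32% lower. Within cluster 1, 10 of 60 were higher and 4 lower (6.36% and 2.83% of all genes tested). Within cluster 2, 28 of 55 were higher and 4 lower (17.5% and 19.3%). The median log2 fold changes of the members were 0.074, 0.014 and 0.33, each below the 0.61 over all cells.

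**Figure D5:**
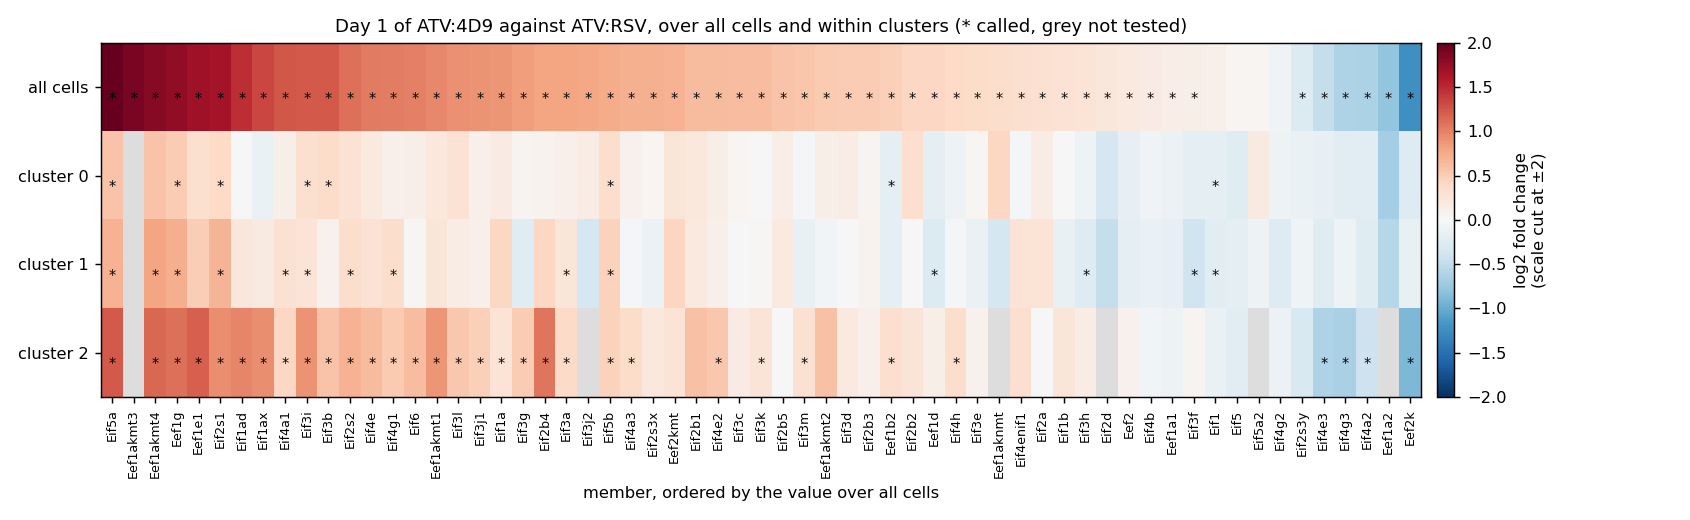
Log2 fold change at day 1 of ATV:4D9 against ATV:RSV for each tested member (columns, ordered by the value over all cells), over all cells and within the 3 deposited clusters, with stars for called values and grey for members not tested there. Clusters 0 and 1 have fewer called members (6 higher and 2 lower, 10 higher and 4 lower) than cluster 2 (28 higher and 4 lower), with Eif5a, Eef1g and Eif2s1 red in all 3, and cluster 2 has the blue of Eef2k, Eif4g3, Eif4e3 and Eif4a2 at the right, and the weak reds near the right end over all cells include Eef1a1, Eef2, Eif4b, Eif2d and Eif3f, which turn below 0 with library-size scaling.

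A set of 5 genes was higher over all cells and within each of the 3 clusters, namely Eif5a, Eef1g, Eif2s1, Eif3i and Eif5b. The share of all genes that did so was not counted, so the 5 cannot be set against a background. CPM within clusters are scaled by library size alone, whereas the log2 fold changes use TMM. Eif5a was at 297, 424 and 397 CPM in cluster 2 of the ATV:RSV mice and at 775, 809 and 844 CPM at day 1 (1.23, adjusted p = 2.13e-07). In cluster 0 its change was 0.57, adjusted p = 2.96e-04, and in cluster 1 0.70, adjusted p = 1.79e-06. Eef1g changed by 0.51, adjusted p = 1.02e-04 in cluster 0, by 0.72, adjusted p = 3.46e-07 in cluster 1 and by 1.11, adjusted p = 1.65e-07 in cluster 2. In all 3 clusters these values were lower than over whole mice. Eef2k was at 73.5, 71.6 and 79.8 CPM in cluster 2 of ATV:RSV and 43.5, 36.7 and 36.0 CPM at day 1 (-0.89, adjusted p = 1.30e-04), and Eif4a2, Eif4e3 and Eif4g3 were lower there too. Eef2k was not called in cluster 0 (-0.25, adjusted p = 0.190) or cluster 1 (-0.14, adjusted p = 0.508).

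Some members called higher over whole mice were lower inside a cluster. Eef1b2 was lower in cluster 0 (-0.20, adjusted p = 0.0322) and higher in cluster 2 (0.33, adjusted p = 2.30e-04). In cluster 1 Eif3f (-0.40, adjusted p = 0.00550), Eef1d (-0.27, adjusted p = 0.0323) and Eif3h (-0.25, adjusted p = 0.0354) were lower, 3 genes that were called higher over all cells and again at day 7. With library-size scaling over all cells at day 1, Eif3f was called lower (-0.13, adjusted p = 0.0127) and Eif3h was not called (0.026, adjusted p = 0.562). Eif1, which was not called over whole mice, was lower in cluster 0 (-0.18, adjusted p = 0.0388) and in cluster 1 (-0.22, adjusted p = 0.0325). Whether the changes differ between clusters was not tested, and the day 1 cells of clusters 0 and 1 were few.

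Cells that held a Mki67 or Top2a UMI were also compared with the others of the same mouse. In the day 1 mice the cells with a UMI of Mki67 or Top2a held 10817 to 12223 UMIs per cell on average, against 8243 to 9304 in the other cells. As a share of UMIs 23 of the 61 tested members were higher in these cells in all 3 mice, 18 were lower in all 3 and 20 were mixed, where 35.2% of all genes tested were higher and 26.4% lower. The median ratio was 1.00 over the members and 1.02 over all genes tested, so the members' counts were near the background. The highest ratios were those of Eif1ad (1.39), Eif4enif1 (1.33) and Eif4a3 (1.21), and the lowest those of Eef1akmt3 (0.541) and Eef1a2 (0.689), both at low counts, and of Eif1a (0.847), Eef1e1 (0.858) and Eif4g3 (0.858). Without all cells that held such a UMI 50 members were higher and 6 lower at day 1, against 51 and 6 with them.

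Regulators and partners outside the family were examined at day 1 as 4 lists, beside the 34.7% of all genes tested that were higher and the 34.6% that were lower. Of 14 kinases, 4E-binding proteins and regulatory subunits of the eIF2 alpha phosphatase 5 were higher and 6 lower, shares near those of all genes, with a median log2 fold change of -0.15. Eif2ak2, the interferon-induced kinase of eIF2 alpha, went from 33.3 ± 1.70 to 99.3 ± 7.17 CPM (SD, n = 3), a change of 1.57, adjusted p = 1.44e-10. Of the other eIF2 alpha kinases Eif2ak1 (-0.28, adjusted p = 0.00129) and Eif2ak3 (-0.34, adjusted p = 3.00e-04) fell, and Eif2ak4 was not called (0.092, adjusted p = 0.177). The eIF4E inhibitor Eif4ebp1 rose (1.06, adjusted p = 3.71e-08), while Mknk1 (-0.62, adjusted p = 4.34e-09) and Mknk2 (-0.53, adjusted p = 6.61e-06), the kinases that phosphorylate eIF4E, fell. Of the other 4E-binding proteins Eif4ebp3 rose (0.27, adjusted p = 0.00228) and Eif4ebp2 was not called (-0.18, adjusted p = 0.0635). Among 16 genes for poly(A) binding, scanning, termination and recycling 10 were higher and 3 lower, with a median of 0.53. Denr, which recycles the small subunit, rose (1.38, adjusted p = 5.01e-12), as did the release factor Etf1 (0.96, adjusted p = 4.59e-09), and Pdcd4, an inhibitor of eIF4A, fell from 50.2 ± 3.08 to 18.1 ± 0.815 CPM (-1.46, adjusted p = 3.75e-10).

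Enzymes that finish eIF5A and eEF2 by adding hypusine and diphthamide were higher for 5 and lower for 1 of 8 tested (9 listed). Dohh, the second enzyme of hypusine synthesis, rose (0.44, adjusted p = 5.71e-07), and Dhps, the first, was not called (0.079, adjusted p = 0.240). Of 9 mitochondrial translation factors 4 were higher and 2 lower, counts too small to be read against the shares of all genes, with Tufm, the elongation factor of mitochondria, at 1.09, adjusted p = 8.43e-10 and Mtif3, an initiation factor of mitochondria, at -0.69, adjusted p = 7.52e-07. At day 7, where 2.99% of all genes tested were higher, a single gene of these 4 lists was called, the poly(A)-binding protein Pabpc1 (0.38, adjusted p = 2.02e-04), which had been higher at day 1 as well (0.62, adjusted p = 1.94e-08).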

How the data were processed

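Single-cell RNA was sequenced from CD45-enriched cells of 15 mice with a 3′ kit that tags molecules with UMIs. The submitters' processing notes name Cell Ranger 4.0.0 and mm10, whereas the methods of the paper name other versions of Cell Ranger. The filters on cells before deposit, and whether doublets were removed, are not given in the sources used here. No doublet caller was run here, and leaving out the 5% of cells with most UMIs was an alternative. The deposited matrix held raw UMI counts per gene and cell, and the deposited cell table held the UMI counts, the percent of mitochondrial UMIs, the cluster and the mouse of each cell. Matrix sums equalled the deposited UMIs in 102043 of 102043 cells. Counting is of 3′ ends and whole genes, so isoforms were not separated.

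Groups and batch numbers (1 to 3, used as replicate numbers) came from the labels. A further control animal that the labels mention was not analysed here. The mouse was the replicate, and its cells were added up to 1 column of counts. After filterByExpr (minimum count 10, minimum total 15) and TMM scaling, a model with a mean for each of the 5 groups was fitted to the 15 mice by limma-voom in R 4.3.3 (limma 3.58.1 with edgeR 4.0.16), with Benjamini-Hochberg adjustment over 14260 genes. CPM uses the TMM-scaled library size, except for CPM within clusters, which uses the library size alone. The same test was run within deposited clusters on mice with at least 50 cells there. Alternatives were edgeR's quasi-likelihood test, DESeq2 1.42.0, library-size scaling, no filter, a batch block, 2 sets of cells left out, and each mouse left out in turn. The procedure was tested on simulated data. Per-mouse values are given for a core of 14 genes, the 8 highest and 8 lowest called values at day 1, up to 10 genes called at day 7 and all called at days 14 and 28. The members and all gene lists were chosen with earlier results of these data known. Positions are from GENCODE M21 (mm10), where 62 of 63 symbols matched, and promoters from RefSeq (GRCm38.p6). Proteins were not compared here.

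By the labels a batch contains every condition, so that the number marks a shared batch and pairs the mice. Across genes, deviations from the group mean had a mean r of 0.123 in the 30 pairs of the same batch (-0.23 to 0.42). No 2 mice of a group were copies, since counts differed beyond sampling noise (chi-square per degree of freedom 9.93 or more).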

Additional observations from a re-analysis of the deposited data

Results flagged for a closer look

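The effect of ATV:4D9 against the shared control mice differed between day 1 and day 7 for most of the 61 tested members by the direct contrast in limma-voom, in which 40 had a lower and 7 a higher value at day 7. Of the 7, Eif3f (by 0.35) and Eef1a1 (by 0.29) were higher at both days and higher at day 7 than at day 1. Both had the same order with library-size scaling, although their day 1 values then turned below 0. No test for outlying mice was made in groups of 3, and calls that rest on 1 mouse are given with the results above.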

How the results depend on the processing

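Scaling by library size alone in place of TMM changed the day 1 counts most. It gave 10 members lower at day 1, 3 lower at day 7, 1 called at day 14 and 13 higher from day 1 to day 7, with member medians of 0.37 at day 1 and -0.018 at day 7, and it turned the day 1 values of Eif1 (-0.14), Eef1a1 (-0.11), Eef2 (-0.040), Eif3f (-0.13) and Eif4b (-0.069). The TMM factors were 0.878 to 0.906 at day 1 and 1.054 to 1.064 in ATV:RSV, and what made them differ was not tested. The replicate block and DESeq2 each gave 6 members called at day 14 and 1 lower at day 7, and 1 was lower at day 7 without cells with a Mki67 or Top2a UMI or without the 5% of cells with most UMIs. The block changed no other call of this kind by more than 1.5 times. Over all genes the calls at day 14 went from 57 to 122 with the block and to 132 with DESeq2. With 1 mouse left out the counts were 49 to 51 higher and 6 lower at day 1, 10 to 14 higher and 0 to 1 lower at day 7, 0 to 4 at day 14, 0 at day 28, and 7 to 8 higher and 39 to 40 lower from day 1 to day 7, and the medians were 0.57 to 0.63 at day 1 and 0.036 to 0.11 at day 7. For the members described by their values in each mouse, 924 of 945 alternative values kept their direction and side of the threshold, 15 lost a call, 1 gained one and 5 reversed. All 5 reversed with library-size scaling. Many alternatives left out a mouse of neither group compared, which can move a value little, so part of the agreement was set beforehand. Calls lost by other members (Eif2d, Eif2a, Eif3m, Eif3i, Eif1b, Eif4enif1 and Eef1aknmt) are not in this tally and stand in the report. Eef1akmt3, with 83 UMIs, is limited by depth, and the other 60 tested members had at least 1227 UMIs each.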
